A study of Homo sapiens with 12 samples.

Results

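The deposited tables hold 60660 gene identifiers, and 45 of them carry the names of genes that work in mitosis. These 45 mitosis genes were selected by name and function, although earlier results of these data were known when the list was chosen. All 45 were among the 16842 genes that reached a TPM of 1 in at least 2 libraries and were tested. TPM is a transcript abundance normalised for gene length and scaled to the same total in every library. The cells were Kelly, a human neuroblastoma line with an amplified MYCN gene. Each of 3 derivative lines carried an shRNA that doxycycline switches on: against RCOR2 (the shRCOR2 line), against RCOR1 (the shRCOR1 line), or against no target (the shCTRL line). RCOR1 and RCOR2 encode scaffold proteins of the CoREST complexes, which join a histone demethylase to histone deacetylases. Induced cells of each line received 2 µg/mL doxycycline and untreated cells received none, which gave 6 groups of 2 libraries: induced and untreated shRCOR2, induced and untreated shRCOR1, and induced and untreated shCTRL. The titles and the time label give 72 h, whereas the treatment protocol names shorter times, so the length of induction is stated in conflicting ways. Each target was represented by 1 line, the labels do not say whether a line is a clone or a pool, and the induced shCTRL cells share the doxycycline but not a targeting hairpin. The labels do not say that replicates were separate cultures, so every p-value below measures the spread between these samples, which may be technical.

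Mitosis is driven by cyclin B and CDK1, ordered by the Polo and Aurora kinases, and held at the spindle checkpoint until every chromosome is attached. Separase then cuts cohesin once its inhibitor, securin, has been degraded through the anaphase-promoting complex, and the cell divides between the separated chromosomes. Transcripts of these genes accumulate late in the cell cycle, so bulk RNA of a dividing culture holds more of them than RNA of a resting one. The MuvB proteins recruit MYBL2 and FOXM1 to such genes in cycling cells, and form the repressive DREAM complex with E2F4 in arrested ones. MuvB binds the cell cycle homology region, usually spelled TTTGAA or TTCGAA, which often lies near a CCAAT box bound by the factor NF-Y. These are bulk samples, in which fewer cells of a type and less RNA per cell cannot be told apart.

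The RefSeq promoter table (build GRCh38.p14, windows of 250 bases before to 50 bases after a start site) has entries for 39 of the 45 genes. On either strand, TTTGAA or TTCGAA stood in the windows of 30 of them (76.9%), against 15.1% of 10835 other tested genes and 16.4% of all 35116 windows in the table. CCAAT stood in 32 of the 39 (82.1%), against 43.1% of the other tested genes and 34.6% of all windows. Both motifs shared a window in 26 of the 39 (66.7%), against 6.36% of the other tested genes and 6.38% of all windows. A spelling of the E2F site, TTCGCGC or TTGGCGC, stood in 6 of the 39 (15.4%), against 10.5% of the other tested genes and 5.06% of all windows. Such matches describe the letters in a window and are not evidence of binding. The 170 bases before the start site are shown for 5 genes whose changes are compared between the lines below, each 5′ to 3′ on the gene's own strand, with the TTTGAA or TTCGAA words and CCAAT boxes of either strand in capitals. ATTGG and TTCAAA are these words read from the opposite strand. CCNA2 (chr4:121823884-121824053, minus strand), CDK1 (chr10:60778161-60778330, plus strand), INCENP (chr11:62123841-62124010, plus strand), PTTG1 (chr5:160421685-160421854, plus strand) and KIF11 (chr10:92592960-92593129, plus strand) read as follows. In PTTG1, a CCAAT and an ATTGG overlap as CCAATTGG.
CCNA2: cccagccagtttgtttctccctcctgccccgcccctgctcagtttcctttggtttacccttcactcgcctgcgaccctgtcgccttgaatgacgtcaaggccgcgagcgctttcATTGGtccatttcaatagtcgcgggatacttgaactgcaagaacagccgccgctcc
CDK1: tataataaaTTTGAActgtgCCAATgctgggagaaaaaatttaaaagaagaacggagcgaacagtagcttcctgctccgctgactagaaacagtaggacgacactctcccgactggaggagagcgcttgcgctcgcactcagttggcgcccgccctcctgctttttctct
INCENP: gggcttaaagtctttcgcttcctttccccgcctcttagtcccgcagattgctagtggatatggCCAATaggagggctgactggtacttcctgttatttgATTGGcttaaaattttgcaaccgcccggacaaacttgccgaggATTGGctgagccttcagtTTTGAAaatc
PTTG1: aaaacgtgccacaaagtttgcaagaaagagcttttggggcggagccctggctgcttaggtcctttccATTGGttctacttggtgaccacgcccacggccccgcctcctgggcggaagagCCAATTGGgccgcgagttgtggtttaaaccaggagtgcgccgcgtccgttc
KIF11: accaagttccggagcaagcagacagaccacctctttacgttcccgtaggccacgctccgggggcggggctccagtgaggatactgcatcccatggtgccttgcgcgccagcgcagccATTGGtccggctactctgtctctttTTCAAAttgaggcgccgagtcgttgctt

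Of these 5 stretches, those of CDK1, INCENP and KIF11 hold a TTTGAA or TTCGAA word and those of CCNA2 and PTTG1 do not. Other spellings of the homology region were not searched, so a stretch without these words may still hold one. All 5 hold a CCAAT box, and INCENP and PTTG1 hold 3 each. The promoters of AURKA, BIRC5, FOXM1, TPX2, TTK and UBE2C were not analysed here.

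RCOR2, the target in the shRCOR2 line, had 17.7 and 20.5 TPM in induced shRCOR2 cells, against 55.4 and 49.9 TPM in untreated shRCOR2 cells (log2 change −1.42 ± 0.11, SE; limma adjusted p = 0.000403). RCOR1, the target in the shRCOR1 line, had 4.80 and 5.07 TPM in induced shRCOR1 cells, against 8.32 and 9.08 TPM in untreated shRCOR1 cells (log2 change −0.71 ± 0.12; limma adjusted p = 0.0109). RCOR2 was also lower there, with 26.0 and 26.3 TPM in induced shRCOR1 cells, against 51.4 and 50.5 TPM in untreated shRCOR1 cells (−0.94 ± 0.11; limma adjusted p = 0.00278), so the shRCOR1 line carried less of both transcripts. The 8 adrenergic neuroblastoma markers all reached a TPM of 1. They summed to 3553 and 3807 TPM in induced shRCOR2 cells, against 5880 and 5881 TPM in untreated ones, to 4934 and 4843 TPM in induced shRCOR1 cells, against 6074 and 6198 TPM in untreated ones, and to 5789 and 4415 TPM in induced shCTRL cells, against 5928 and 5232 TPM in untreated ones. Of 4 epithelial markers 3 reached a TPM of 1 in some library, and their sum was highest in induced shRCOR1 cells, with 7.14 and 22.1 TPM, against 0.397 and 1.25 TPM in untreated shRCOR1 cells. EPCAM alone had 3.18 and 4.13 TPM in induced shRCOR1 cells, against 0.286 and 0.309 TPM in untreated shRCOR1 cells. In the other 8 libraries the epithelial sum ran from 0.474 to 5.23 TPM. The 5 fibroblast markers summed to 8.08 to 115 TPM, the replicate 2 sum being the higher one in all 6 groups. Most of this sum was COL1A1 and COL3A1, which reached 87.3 and 25.3 TPM. COL1A2 and DCN reached at most 0.293 and 0.0877 TPM, and 3 of the 5 reached a TPM of 1 in some library. Endothelial markers summed to 0.705 to 2.59 TPM and leukocyte ones to 0.0876 to 0.657 TPM, with the highest sum of both in induced shRCOR1 replicate 2. Of the defining markers, CD3E and CDH1 were listed at 0 in all 12 libraries and PECAM1 reached at most 0.00389 TPM. The part of these markers in the mitosis gene changes was not tested. The tables hold no read counts; depths, judged by coverage over FPKM, spanned a 2.14-fold range. The share of TPM in mitochondrially encoded genes ran from 13.3% to 21.4% and was higher in replicate 2 of every group.

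All 45 mitosis genes had lower mean levels in induced than in untreated cells of all 3 lines, the shCTRL line included. Such a pattern was found in 15.4% of all tested genes. The median log2 change of the 45 was −0.80 in the shRCOR2 line, −0.66 in the shRCOR1 line and −0.37 in the shCTRL line, where the medians of all tested genes were 0.07, 0.04 and −0.02. The shRCOR1 median rested heavily on its induced libraries: it was −1.05 without induced shRCOR1 replicate 1 and −0.298 without induced shRCOR1 replicate 2. In the shRCOR2 line leaving out 1 library gave medians from −0.95 to −0.619. In the shRCOR2 line 14 of the 45 fell at an adjusted p below 0.05 (limma on log2(TPM + 1), Benjamini-Hochberg over all genes tested), where 6.47% of all tested genes fell. With the replicate number as a block in the fit, 42 fell, against 14.8% of all tested genes. In the shRCOR1 line 4 fell, where 3.64% of all tested genes fell, and 43 fell with the block, against 12.1% of all. In the shCTRL line limma called 0 of the 45, as it did 0.0% of all tested genes lower, with 6 at an unadjusted p below 0.05. With the block it again called 0 of the 45, against 0.0297% of all tested genes, with 38 at an unadjusted p below 0.05. No mitosis gene was called higher in any of these comparisons. Of all tested genes, 7.81% rose in the shRCOR2 line (21.4% with the block) and 4.98% in the shRCOR1 line (15.4% with the block). Without any 1 library of its own line, the fit without the block called 0 to 3 mitosis genes lower in the shRCOR2 line and 0 to 13 in the shRCOR1 line, so the counts of 14 and 4 are not stable. With the block the counts ran from 32 to 40 in the shRCOR2 line and from 23 to 44 in the shRCOR1 line.

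**Figure D1:**
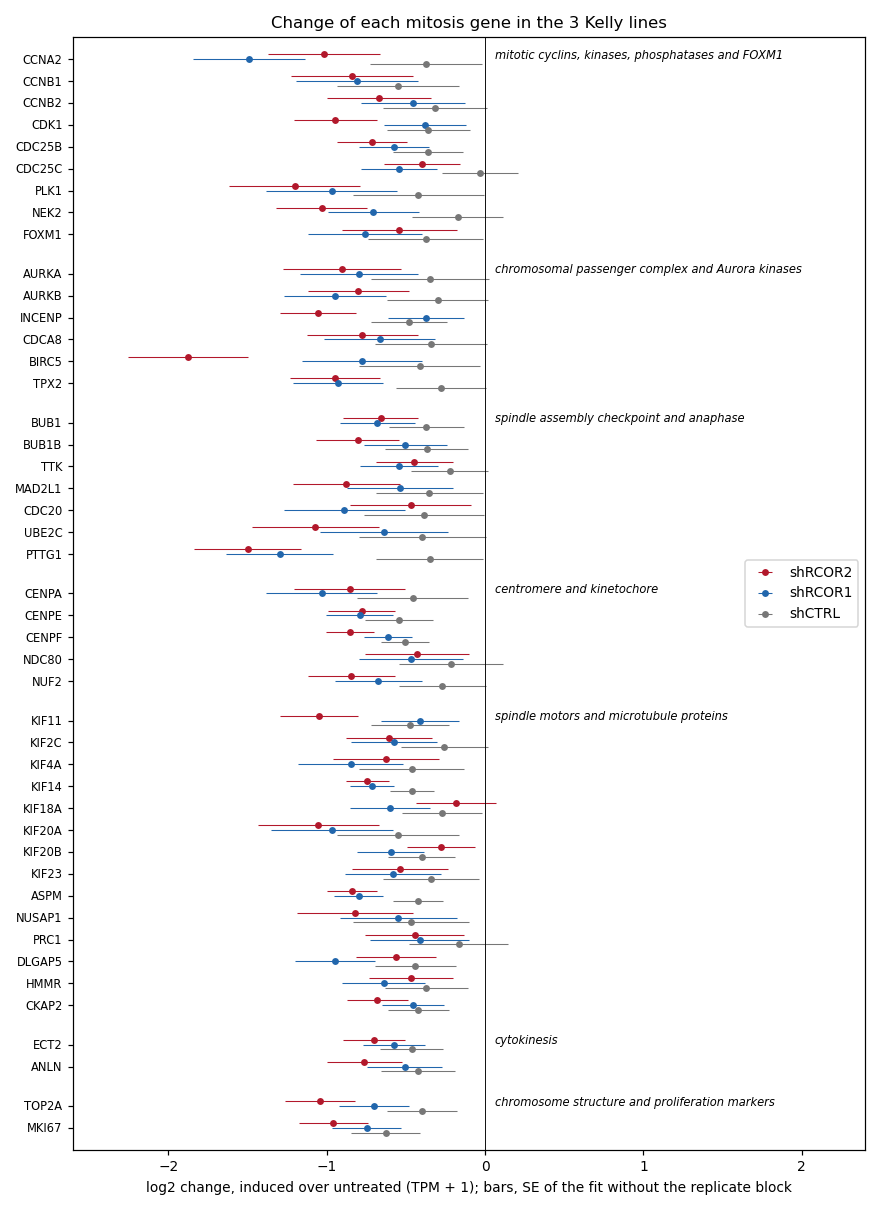
Log2 change of each of the 45 mitosis genes (rows, grouped by role) between induced and untreated cells, on the log2(TPM + 1) scale, in the shRCOR2 (red), shRCOR1 (blue) and shCTRL (grey) lines. Points are the differences between group means and bars the SE of the fit without the replicate block; every point lies below 0.

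The library levels show how this shift was built. Set against each gene's mean over the 6 untreated libraries, the median mitosis gene lay at −0.67 and −0.85 (log2) in the 2 induced shRCOR2 libraries, against 0.21 and −0.16 in the untreated ones. In the shRCOR1 line the medians were −0.30 and −1.04 in induced libraries, against 0.15 and −0.14 in untreated ones. In the shCTRL line they were −0.16 and −0.63 in induced libraries, against 0.18 and −0.24 in untreated ones. Replicate 2 therefore lay below replicate 1 in all 6 groups: the median of replicate 2 minus replicate 1 ran from −0.75 to −0.27 (log2), and 40 to 45 of the 45 genes were lower in replicate 2 of each group. The medians of all tested genes ran from 0.04 to 0.17. The widest gap was that between the induced shRCOR1 libraries, and it was wider than the median change of that line. The mitochondrial share and the replicate number moved together with these levels, and their part in them was not tested. Compared within a replicate number, the median change was −0.87 and −0.73 in the shRCOR2 line, −0.40 and −0.89 in the shRCOR1 line, and −0.35 and −0.43 in the shCTRL line. All 45 genes were lower in both replicate pairs of the shRCOR2 and shRCOR1 lines, and 44 were in the shCTRL line, where CDC25C was the exception. Among all tested genes, 33.9%, 35.2% and 36.3% were lower in both pairs of these lines. Summed over the 45 genes, TPM came to 2752 and 2271 in induced shRCOR2 cells, against 5193 and 3970 in untreated ones. The sums were 3579 and 2045 in induced shRCOR1 cells, against 4995 and 4011 in untreated ones, and 3985 and 2824 in induced shCTRL cells, against 5088 and 3764 in untreated ones. The sum of induced shCTRL replicate 2 thus lay below both untreated sums of every line, and near that of induced shRCOR2 replicate 1.

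**Figure D2:**
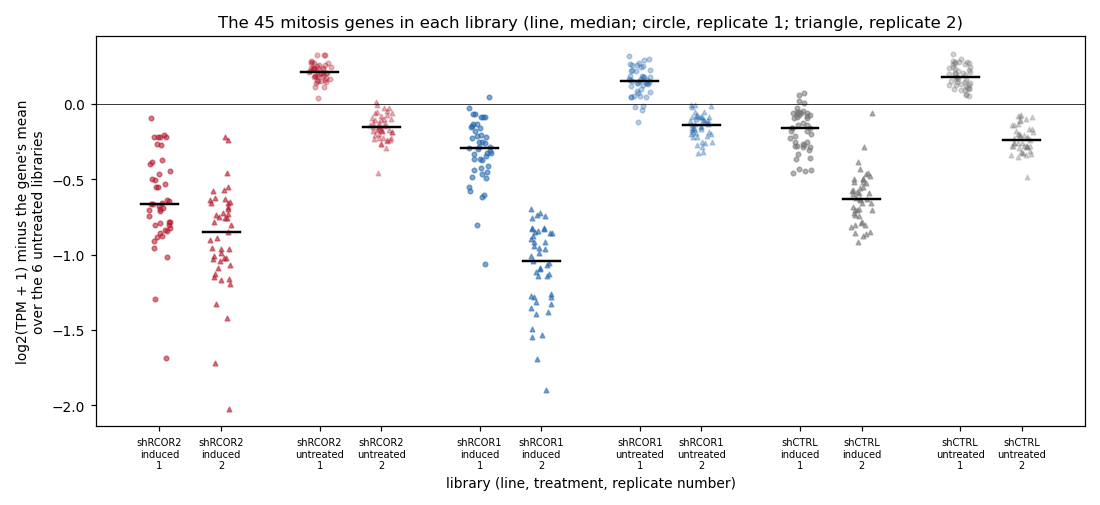
Level of the 45 mitosis genes in each of the 12 libraries, as log2(TPM + 1) minus the gene's mean over the 6 untreated libraries. Each point is 1 gene, circles are replicate 1, triangles replicate 2 and black lines the medians, which run from −1.04 in induced shRCOR1 replicate 2 to 0.21 in untreated shRCOR2 replicate 1.

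Both induced shRCOR2 libraries lay below both untreated ones for 44 of the 45 genes, with KIF18A as the exception, against 25.7% of all tested genes. In the shRCOR1 line the same held for 39 genes, against 23.7% of all, and in the shCTRL line for 16, against 15.6% of all. The 6 exceptions in the shRCOR1 line were CCNB2, CDK1, INCENP, UBE2C, NDC80 and PRC1.

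The counts of falls in the groups below stand against the shares of all tested genes. These were 6.47% in the shRCOR2 line (14.8% with the block) and 3.64% in the shRCOR1 line (12.1% with the block). The cyclins, kinases, phosphatases and FOXM1 that start and time mitosis form a group of 9. In the shRCOR2 line 2 of the 9 fell without the block and 8 with it, with a median log2 change of −0.84. For shRCOR1 cells the counts were 1 without the block and 8 with it, with a median of −0.71, and in the shCTRL line 0 fell under either fit, with a median of −0.36. CDK1, the kinase that drives entry into mitosis, had 83.6 and 71.7 TPM in induced shRCOR2 cells, against 170.2 and 132 TPM in untreated shRCOR2 cells (−0.95 ± 0.26, limma adjusted p = 0.0448). It had 152 and 90.4 TPM in induced shRCOR1 cells, against 161 and 145 TPM in untreated shRCOR1 cells, so that 1 induced library reached the untreated range. The log2 change there was −0.38 ± 0.26 and was called neither without the block (limma adjusted p = 0.443) nor with it (limma adjusted p = 0.0590). CDK1 had 129.5 and 90.1 TPM in induced shCTRL cells, against 153 and 126 TPM in untreated shCTRL cells (−0.36). Its partners CCNB1 and CCNB2 changed by −0.84 and −0.67 in the shRCOR2 line and by −0.81 and −0.46 in the shRCOR1 line. All 4 of these changes were called with the block and none without it.

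CCNA2, the cyclin that acts from S phase to early mitosis, had the largest change of the 45 in the shRCOR1 line. It had 47.8 and 26.4 TPM in induced shRCOR1 cells, against 118 and 87.8 TPM in untreated shRCOR1 cells (−1.49 ± 0.35, limma adjusted p = 0.0368). In the shRCOR2 line it had 58.1 and 44.6 TPM in induced shRCOR2 cells, against 127 and 85.2 TPM in untreated shRCOR2 cells, a change of −1.02 ± 0.35 that passed in the blocked fit only (limma adjusted p = 0.000342, against 0.0917 without the block). Control cells gave 94.6 and 60.3 TPM in induced shCTRL cells, against 120.3 and 80.0 TPM in untreated shCTRL cells, and the induced and untreated libraries overlapped. The induced shRCOR1 libraries held 36.1% of the untreated mean, the induced shRCOR2 libraries 48.5% and the induced shCTRL libraries 77.3%. NEK2, a centrosomal kinase, had 43.9 and 36.5 TPM in induced shRCOR2 cells, against 97.0 and 70.8 TPM in untreated shRCOR2 cells (−1.03 ± 0.29, limma adjusted p = 0.0459). Its change was −0.71 ± 0.29 in shRCOR1 cells (limma adjusted p = 0.176, and 0.00347 with the block) and −0.17 in shCTRL cells. PLK1, the Polo kinase, changed by −1.20 in the shRCOR2 line, −0.97 in the shRCOR1 line and −0.42 in the shCTRL line, and its knockdown changes were called only with the block. FOXM1, itself a transcription factor of late cell cycle genes, changed by −0.54, −0.76 and −0.37 in the same order of lines. CDC25C, a phosphatase that activates CDK1, changed by −0.40 in shRCOR2 cells (limma adjusted p = 0.0542 with the block). With KIF18A and KIF20B it was 1 of the 3 genes that the blocked fit did not call there.

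The chromosomal passenger complex, in which AURKB acts with INCENP, CDCA8 and BIRC5, was read with AURKA and its activator TPX2. In the shRCOR2 line 2 of these 6 genes fell without the block and all 6 with it (median log2 change −0.93). For shRCOR1 cells the counts were 0 and 6 (median −0.79), and in the shCTRL line 0 fell (median −0.35). BIRC5, which encodes survivin, had the largest change of all 45 genes in the shRCOR2 line. It had 47.4 and 37.4 TPM in induced shRCOR2 cells, against 181 and 136 TPM in untreated shRCOR2 cells (−1.88 ± 0.38, limma adjusted p = 0.0152), which left 26.7% of the untreated mean. It had 129 and 63.1 TPM in induced shRCOR1 cells, against 176 and 137 TPM in untreated shRCOR1 cells (−0.78 ± 0.38; limma adjusted p = 0.262, and 0.00853 with the block). Control cells gave 151 and 85.2 TPM in induced shCTRL cells, against 183 and 126 TPM in untreated shCTRL cells (−0.41), and both induced shRCOR2 libraries lay below every other library of the series. INCENP, the scaffold of the complex, had 39.3 and 31.7 TPM in induced shRCOR2 cells, against 80.1 and 69.4 TPM in untreated shRCOR2 cells (−1.06 ± 0.24, limma adjusted p = 0.0225). It had 68.0 and 42.6 TPM in induced shRCOR1 cells, against 74.3 and 66.2 TPM in untreated shRCOR1 cells (−0.38 ± 0.24; limma adjusted p = 0.402, and 0.0388 with the block). In the control line it had 59.5 and 44.0 TPM in induced shCTRL cells, against 81.1 and 63.7 TPM in untreated shCTRL cells, a change of −0.48 and so of no smaller size than that in the shRCOR1 line. AURKA, AURKB, CDCA8 and TPX2 changed by −0.95 to −0.78 in the shRCOR2 line and by −0.95 to −0.66 in the shRCOR1 line, and were called with the block in both.

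The spindle assembly checkpoint delays anaphase, and the group of 7 genes around it fell in the shRCOR2 line in 1 case without the block and in all 7 with it (median −0.80). For shRCOR1 cells the counts were 0 and 7 (median −0.64), and for shCTRL cells 0 and 0 (median −0.37). PTTG1 encodes securin, the inhibitor that holds separase back until anaphase. It had 83.5 and 61.8 TPM in induced shRCOR2 cells, against 239.6 and 175 TPM in untreated shRCOR2 cells (−1.50 ± 0.34, limma adjusted p = 0.0224). It had 118 and 63.0 TPM in induced shRCOR1 cells, against 256 and 177 TPM in untreated shRCOR1 cells (−1.30 ± 0.34; limma adjusted p = 0.0509, and 0.000181 with the block). Control cells gave 184 and 133 TPM in induced shCTRL cells, against 236 and 169 TPM in untreated shCTRL cells, where the groups overlapped (−0.35). Its copies PTTG2 and PTTG3P averaged 0.0347 and 0.0386 TPM over the 12 libraries, against 158 TPM for PTTG1. UBE2C, the ubiquitin-conjugating enzyme of the anaphase-promoting complex, changed by −1.07 in the shRCOR2 line, −0.64 in the shRCOR1 line and −0.40 in the shCTRL line. CDC20, an activator of that complex, changed by −0.47 in the shRCOR2 line and −0.89 in the shRCOR1 line, a difference that was not called. Among the checkpoint proteins, BUB1, BUB1B, TTK and MAD2L1 changed by −0.88 to −0.45 in the shRCOR2 line and by −0.68 to −0.50 in the shRCOR1 line. BUB1 had the lowest mean level of the 45 over the 12 libraries, 21.0 TPM, with 16.8 and 14.6 TPM in induced shRCOR2 cells, against 27.6 and 23.2 TPM in untreated shRCOR2 cells.

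At the centromere and kinetochore, 2 of 5 genes fell in the shRCOR2 line without the block and all 5 with it (median −0.84). The shRCOR1 counts were 1 and 5 (median −0.67), and in the shCTRL line 0 fell (median −0.46). CENPF, a large kinetochore protein, had 93.9 and 95.3 TPM in induced shRCOR2 cells, against 180.0 and 163 TPM in untreated shRCOR2 cells (−0.85 ± 0.15, limma adjusted p = 0.00933). It had 125 and 87.9 TPM in induced shRCOR1 cells, against 165 and 157 TPM in untreated shRCOR1 cells (−0.61 ± 0.15, limma adjusted p = 0.0419). In the control line it had 121 and 116 TPM in induced shCTRL cells, against 179 and 159 TPM in untreated shCTRL cells, so its groups were separate in all 3 lines (−0.50 in the control line). CENPE, a kinetochore motor, had 18.1 and 18.8 TPM in induced shRCOR2 cells, against 35.6 and 29.4 TPM in untreated shRCOR2 cells (−0.78 ± 0.21, limma adjusted p = 0.0428) and changed by −0.79 and −0.54 in the shRCOR1 and shCTRL lines. The centromeric histone CENPA and the microtubule-binding pair NDC80 and NUF2 changed by −0.85, −0.43 and −0.84 in the shRCOR2 line.

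Of the 14 spindle motors and microtubule proteins, 4 fell in the shRCOR2 line without the block and 12 with it (median −0.62). The shRCOR1 counts were 2 and 13 (median −0.60), and in the shCTRL line 0 fell (median −0.42). KIF11, the motor that pushes the spindle poles apart, had 34.8 and 32.1 TPM in induced shRCOR2 cells, against 77.3 and 63.6 TPM in untreated shRCOR2 cells (−1.05 ± 0.25, limma adjusted p = 0.0259). It had 65.2 and 40.9 TPM in induced shRCOR1 cells, against 70.3 and 67.7 TPM in untreated shRCOR1 cells and was not called under either fit there (−0.41 ± 0.25; limma adjusted p = 0.372, and 0.0593 with the block). The control change of KIF11 was −0.47, with 56.5 and 39.1 TPM in induced shCTRL cells, against 76.0 and 56.9 TPM in untreated shCTRL cells. KIF14, a motor of the central spindle, had 16.5 and 17.4 TPM in induced shRCOR2 cells, against 30.7 and 27.4 TPM in untreated shRCOR2 cells (−0.74 ± 0.14, limma adjusted p = 0.0105), and 18.1 and 13.7 TPM in induced shRCOR1 cells, against 27.1 and 25.9 TPM in untreated shRCOR1 cells (−0.71 ± 0.14, limma adjusted p = 0.0158). ASPM, a spindle pole protein, had 29.2 and 29.8 TPM in induced shRCOR2 cells, against 58.1 and 49.3 TPM in untreated shRCOR2 cells (−0.84 ± 0.16, limma adjusted p = 0.0113), and 32.9 and 23.4 TPM in induced shRCOR1 cells, against 49.6 and 48.4 TPM in untreated shRCOR1 cells (−0.80 ± 0.16, limma adjusted p = 0.0174). Like CENPF, both genes had induced and untreated libraries that did not overlap in either knockdown line or in the control line. In control cells KIF14 changed by −0.46 and ASPM by −0.42. CKAP2, a microtubule-binding protein, had 56.6 and 57.8 TPM in induced shRCOR2 cells, against 104 and 81.7 TPM in untreated shRCOR2 cells (−0.68 ± 0.19, limma adjusted p = 0.0493). KIF18A, a motor that shortens microtubule plus ends, had the smallest change of the 45 in the shRCOR2 line, with 23.8 and 21.7 TPM in induced shRCOR2 cells, against 29.4 and 22.7 TPM in untreated shRCOR2 cells (−0.18 ± 0.25; limma adjusted p = 0.693, and 0.243 with the block). It had 20.6 and 13.2 TPM in induced shRCOR1 cells, against 28.6 and 22.9 TPM in untreated shRCOR1 cells (−0.60 ± 0.25; limma adjusted p = 0.189, and 0.00561 with the block). Its change in the control line, −0.27, lay between these. KIF20B showed the same order, at −0.28 in the shRCOR2 line, −0.60 in the shRCOR1 line and −0.40 in the shCTRL line. The remaining 8 genes of this group changed by −1.05 to −0.44 in the shRCOR2 line and by −0.97 to −0.41 in the shRCOR1 line.

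The cytokinesis genes are ECT2, which activates RhoA at the division plane, and ANLN, a scaffold of the contractile ring. ECT2 had 63.9 and 61.3 TPM in induced shRCOR2 cells, against 115 and 90.7 TPM in untreated shRCOR2 cells (−0.70 ± 0.20, limma adjusted p = 0.0470). Both genes were called with the block in the shRCOR2 and shRCOR1 lines, with changes of −0.76 and −0.51 for ANLN and −0.58 for ECT2 in the shRCOR1 line. TOP2A, which untangles chromosomes, had the highest mean level of the 45, 192 TPM over the 12 libraries. It had 125 and 110.3 TPM in induced shRCOR2 cells, against 260.5 and 226 TPM in untreated shRCOR2 cells (−1.04 ± 0.22, limma adjusted p = 0.0180), and 182 and 111 TPM in induced shRCOR1 cells, against 244 and 222 TPM in untreated shRCOR1 cells (−0.70 ± 0.22; limma adjusted p = 0.0913, and 0.00450 with the block). In the control line it had 198 and 156 TPM in induced shCTRL cells, against 251 and 214 TPM in untreated shCTRL cells, with a lower value in both induced libraries than in their untreated partners. MKI67, the Ki-67 proliferation marker, had 46.0 and 44.5 TPM in induced shRCOR2 cells, against 93.9 and 84.1 TPM in untreated shRCOR2 cells (−0.96 ± 0.22, limma adjusted p = 0.0223) and 60.8 and 45.6 TPM in induced shCTRL cells, against 90.7 and 74.1 TPM in untreated shCTRL cells. Its change of −0.63 was the largest of the 45 in the control line, and its change in the shRCOR1 line was −0.75.

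**Figure D3:**
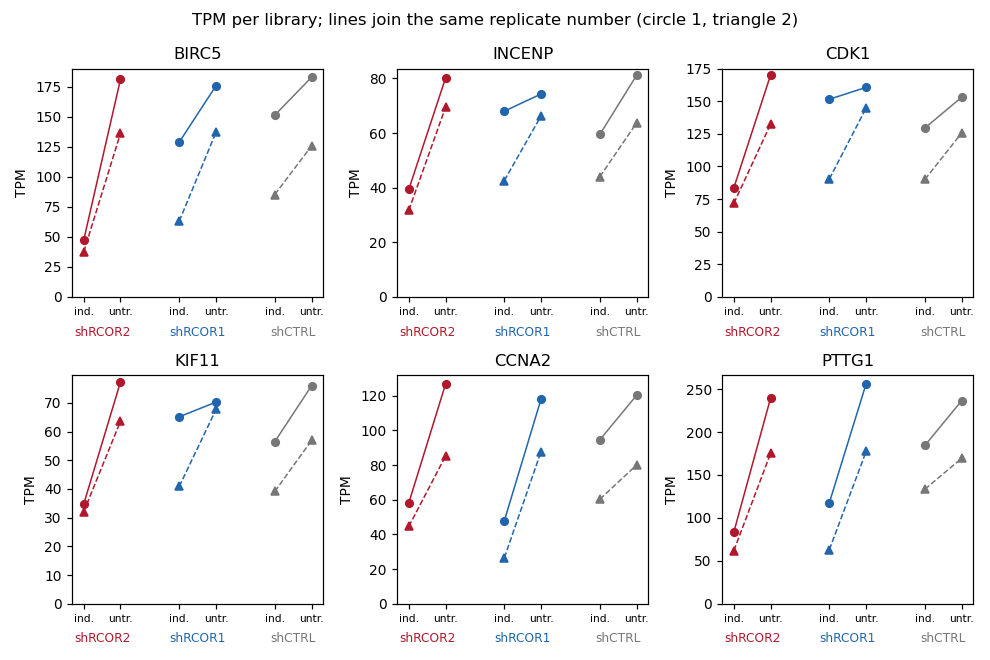
TPM of BIRC5, INCENP, CDK1, KIF11, CCNA2 and PTTG1 in every library, with induced (ind.) left of untreated (untr.) in each line. Lines join libraries of the same replicate number; circles are replicate 1 and triangles replicate 2, and the induced shRCOR2 values of BIRC5, 47.4 and 37.4 TPM, lie below all its others.

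Doxycycline and time in culture are shared with the control line, so the next comparison asked how far each knockdown line's change exceeded the shCTRL change. Both differences use the same 4 shCTRL libraries and are therefore not independent. The median difference over the 45 genes was −0.35 for the shRCOR2 line and −0.30 for the shRCOR1 line, where the medians of all tested genes were 0.09 and 0.05. The shRCOR1 median changed sign to 0.088 without induced shRCOR1 replicate 2 and was −0.658 without induced shRCOR1 replicate 1, in fits without the block. Such a fit sets 1 induced replicate against both untreated ones, whereas replicate 2 was the lower one in every group. Within replicate 1 the median change was −0.40 in the shRCOR1 line and −0.35 in the shCTRL line, and within replicate 2 −0.89 and −0.43. The size of the shRCOR1 difference, and in these fits its sign, thus rests on 1 library. For the shRCOR2 line leaving out any 1 of the 8 libraries kept the sign, with medians from −0.583 without induced shCTRL replicate 2 to −0.166 without induced shCTRL replicate 1. Without the block limma called 0 of the 45 in the shRCOR2 difference, against 1.2% of all tested genes lower, with 2 at an unadjusted p below 0.05. With the block it called 8 lower, against 5.8% of all, with 20 at an unadjusted p below 0.05. In the shRCOR1 difference it called 0 without the block, against 0.439% of all, with 0 at an unadjusted p below 0.05, and 3 with the block, against 3.57% of all, with 14 at an unadjusted p below 0.05. A share of 3 in 45 is thus close to that of all genes. No mitosis gene was called higher in either difference, whereas 0.891% of all tested genes were in the shRCOR2 difference (8.93% with the block) and 0.843% in the shRCOR1 difference (6.59% with the block). Leaving out any 1 of the 8 libraries compared gave 2 to 6 calls with the block in the shRCOR2 difference and 2 to 14 in the shRCOR1 difference, the 14 without induced shRCOR1 replicate 1.

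The 8 genes that fell further in the shRCOR2 line than in shCTRL cells with the block were BIRC5, PTTG1, NEK2, UBE2C, TPX2, TOP2A, CCNA2 and INCENP. The difference was −1.46 ± 0.23 for BIRC5 (SE of the fit with the block; limma adjusted p = 0.00654) and −1.15 ± 0.15 for PTTG1 (limma adjusted p = 0.00394). These 2 calls held without any 1 of the 8 libraries and under all 4 other scalings tried with the block. NEK2 differed by −0.86 ± 0.17 (limma adjusted p = 0.0145), TPX2 by −0.67 ± 0.15 (limma adjusted p = 0.0242) and CCNA2 by −0.64 ± 0.15 (limma adjusted p = 0.0251). These 3 calls held under all 4 scalings but in only 2 or 3 of the 8 fits without 1 library. INCENP, UBE2C and TOP2A, with limma adjusted p from 0.0379 to 0.046, lost their call without any 1 of the 8 libraries and under 1 of the 4 scalings each. In the shRCOR1 line the genes were CCNA2 (−1.12 ± 0.15, limma adjusted p = 0.00438), PTTG1 (−0.95 ± 0.15, limma adjusted p = 0.00932) and TPX2 (−0.65 ± 0.15, limma adjusted p = 0.0323). The calls of CCNA2 and PTTG1 held without any 1 library and under all 4 scalings, and that of TPX2 under all 4 scalings and in 2 of the 8 fits without 1 library. PTTG1, TPX2 and CCNA2 thus passed in both differences, and the values of the lines for PTTG1 were −1.50 and −1.30, against −0.35 in the control line.

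The shRCOR2 and shRCOR1 changes share no libraries and were compared directly. The median difference, shRCOR2 minus shRCOR1, was −0.08, and it changed sign to 0.008 with FPKM in place of TPM and to between 0.029 and 0.339 in 4 of the 8 fits without 1 library. Without the block limma called 0 of the 45 lower and 0 higher, against 5.97% and 5.2% of all tested genes, with 0 at an unadjusted p below 0.05 in either direction. With the block it called 4 lower and 1 higher, against 14.7% and 15.7% of all tested genes, so these shares lay under those of all genes. In the lower direction 5 had an unadjusted p below 0.05 with the block. BIRC5 fell further in the shRCOR2 line, by −1.10 ± 0.23 (limma adjusted p = 0.00786), without any 1 of the 8 libraries and under all 4 scalings. INCENP, its partner in the passenger complex, differed by −0.68 ± 0.16 (limma adjusted p = 0.0137), in 6 of the 8 fits without 1 library and under all 4 scalings. CDK1 (−0.57 ± 0.18, limma adjusted p = 0.0451) and KIF11 (−0.64 ± 0.20, limma adjusted p = 0.0398) were called in 2 and 3 of the 8 fits. CDK1 was called under 0 of the 4 scalings and KIF11 under 2. CCNA2 was the gene that fell further in the shRCOR1 line (0.47 ± 0.15, limma adjusted p = 0.0408), in 2 of the 8 fits and under 2 of the 4 scalings. Without induced shRCOR1 replicate 2 the count of genes lower in the shRCOR2 line was 12, and without induced shRCOR1 replicate 1 the count of higher ones was 6. Across the 45 genes the shRCOR2 and shRCOR1 changes had a Pearson r of 0.359 and a Spearman rho of 0.304, a description over genes that share libraries.

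**Figure D4:**
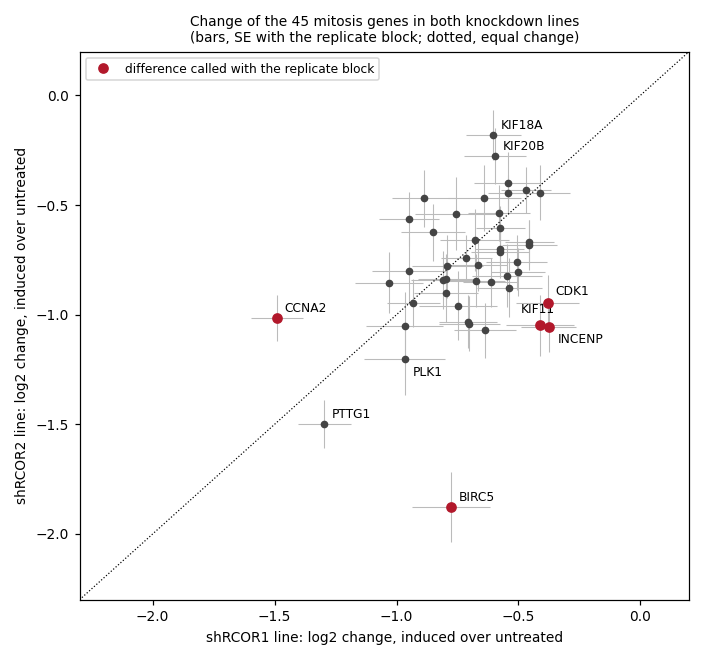
Log2 change of the 45 mitosis genes in the shRCOR2 line (vertical) and in the shRCOR1 line (horizontal), induced over untreated. Bars are the SE of the fit with the replicate block, the dotted line marks equal change, and red points are the 5 genes whose difference was called with the block; BIRC5, INCENP, CDK1 and KIF11 lie below the line and CCNA2 above it.

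Before induction no difference between the lines was called in these genes. Limma called 0 of the 45 between untreated shRCOR2 or shRCOR1 cells and untreated shCTRL cells, with and without the block, as it did 0.0% of all tested genes, and the medians were 0.05 and 0.03. Over the 6 untreated libraries the mean levels ran from 25.1 TPM for BUB1 to 236 TPM for TOP2A.

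Some of the 45 overlap another gene, and the strand setting of the quantification is not given, so their reads may be shared. An overlapping gene reached 10% or more of the member's mean TPM for 10 of the 45. EXOSC9, on the strand opposite to CCNA2, averaged 67.1 TPM and changed by 0.16 in the shRCOR2 line and −0.02 in the shRCOR1 line. RGS5, opposite to NUF2, averaged 2261 TPM and changed by −1.54 and −1.49 in the same lines. FAM53C, opposite to CDC25C, changed by −0.50 and 0.47, and CDC23, opposite to KIF20A, by −0.98 and −0.45. None of BIRC5, PTTG1, INCENP, KIF11, TOP2A and CDK1 had such a neighbour.

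Other genes of cell division that are not among the 45 were read from 7 lists of related processes. None of the 7 lists had a median as low as the 45 in any of the 3 lines except the S phase list in the shCTRL line, which is a description with no test. Of all tested genes, 6.47% fell and 7.81% rose in the shRCOR2 line (14.8% and 21.4% with the block). In the shRCOR1 line 3.64% fell and 4.98% rose (12.1% and 15.4% with the block). Without the block, the falls of the kinetochore, S phase and MuvB lists in the shRCOR2 line were shares near or under that of all genes. The kinetochore and checkpoint list of 36 genes had 2 falls and 0 rises in the shRCOR2 line (12 and 1 with the block) and a median of −0.28, and 2 falls in the shRCOR1 line (15 with the block) and a median of −0.35, against 0 falls and a median of −0.24 in the shCTRL line. CENPI, of the inner kinetochore, fell in shRCOR2 cells (−0.89 ± 0.21, limma adjusted p = 0.0253) and changed by −0.60 in shRCOR1 and −0.57 in shCTRL cells. SKA2, of a microtubule-binding complex, fell in shRCOR1 cells (−0.77 ± 0.11, limma adjusted p = 0.00500) and changed by −0.30 in shRCOR2 and −0.43 in shCTRL cells. Induced and untreated libraries did not overlap for either gene in any of the 3 lines. The condensin, cohesin and separase list of 18 had 3 falls in the shRCOR2 line (8 with the block, median −0.34) and 0 in the shRCOR1 line (6 with the block, median −0.36). In the shCTRL line 0 of the 18 fell, but all 18 changes lay below 0 (median −0.28), and the median difference of the shRCOR2 from the shCTRL change was −0.04. Separase itself, ESPL1, had 34.9 and 28.9 TPM in induced shRCOR2 cells, against 78.8 and 61.9 TPM in untreated shRCOR2 cells (−1.11 ± 0.30, limma adjusted p = 0.0398), so it fell in the same line as its inhibitor PTTG1. It changed by −0.75 in shRCOR1 and −0.39 in shCTRL cells. The 17 genes of the anaphase-promoting complex list had 2 falls in the shRCOR2 line (6 falls and 2 rises with the block) and a median of 0.08, and 1 fall in the shRCOR1 line (5 with the block) and a median of −0.22, against 0 falls and a median of −0.06 in the shCTRL line. Its subunit CDC23 had 25.2 and 24.8 TPM in induced shRCOR2 cells, against 52.3 and 48.3 TPM in untreated shRCOR2 cells (−0.98 ± 0.09, limma adjusted p = 0.000845), and changed by −0.45 in shRCOR1 and −0.15 in shCTRL cells. Of 14 tested genes of mitotic entry and exit, 2 fell and 1 rose in the shRCOR2 line (7 and 1 with the block, median −0.44), and 0 fell and 2 rose in the shRCOR1 line (4 and 2 with the block, median −0.25). In the shCTRL line 0 fell, all 14 changes lay below 0 and the median was −0.30, which is lower than that of the shRCOR1 line. WEE1, the kinase that restrains CDK1, had 52.5 and 60.7 TPM in induced shRCOR1 cells, against 24.1 and 26.3 TPM in untreated shRCOR1 cells (1.13 ± 0.16, limma adjusted p = 0.00525), and 20.4 and 19.6 TPM in induced shRCOR2 cells, against 26.2 and 25.1 TPM in untreated shRCOR2 cells. The difference between the 2 lines for WEE1 was also called (−1.48 ± 0.23, limma adjusted p = 0.00723). CKS1B, a small subunit of cyclin-dependent kinases, had 181 and 124 TPM in induced shRCOR2 cells, against 385 and 284 TPM in untreated shRCOR2 cells (−1.14 ± 0.31, limma adjusted p = 0.0417), with changes of −0.66 in shRCOR1 and −0.16 in shCTRL cells.

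The list of 26 spindle, centrosome and cytokinesis genes had 4 falls in the shRCOR2 line (13 with the block, median −0.43) and 1 in the shRCOR1 line (15 with the block, median −0.46), against 0 in the shCTRL line (median −0.29). MZT1, a small protein of the microtubule nucleation complex, had 14.0 and 13.1 TPM in induced shRCOR2 cells, against 63.1 and 51.2 TPM in untreated shRCOR2 cells (−1.99 ± 0.15, limma adjusted p = 0.000336), and 60.3 and 50.5 TPM in induced shRCOR1 cells, against 64.1 and 52.7 TPM in untreated shRCOR1 cells, and its fall in the shRCOR2 line was larger (difference between the lines −1.92 ± 0.21, limma adjusted p = 0.00230). The S phase list of 44 had 1 fall and 1 rise in the shRCOR2 line (13 and 1 with the block). It had 2 falls in the shRCOR1 line (11 falls and 1 rise with the block) and 0 in the shCTRL line. Its medians were −0.42, −0.31 and −0.42 in the shRCOR2, shRCOR1 and shCTRL lines. The 1 fall in the shRCOR2 line is a share under the 6.47% of all tested genes. MCM4, a subunit of the replicative helicase, had 28.9 and 27.6 TPM in induced shRCOR2 cells, against 117 and 92.6 TPM in untreated shRCOR2 cells (−1.85 ± 0.33, limma adjusted p = 0.00964), with changes of −0.14 in shRCOR1 and −0.48 in shCTRL cells. Of 21 genes for MuvB, DREAM, E2F and their regulators, 1 fell and 3 rose in the shRCOR2 line (4 and 4 with the block, median −0.13), and 1 fell and 1 rose in the shRCOR1 line (3 and 2 with the block, median −0.20), against 0 and 0 in the shCTRL line (median −0.13). CDKN1A, the kinase inhibitor p21 that promotes DREAM assembly, had 136 and 121 TPM in induced shRCOR2 cells, against 35.4 and 45.1 TPM in untreated shRCOR2 cells (1.66 ± 0.17, limma adjusted p = 0.00102). It had 70.4 and 85.3 TPM in induced shRCOR1 cells, against 36.9 and 41.8 TPM in untreated shRCOR1 cells (0.96 ± 0.17, limma adjusted p = 0.0115). Control cells gave 52.1 and 54.7 TPM in induced shCTRL cells, against 34.2 and 44.8 TPM in untreated shCTRL cells (not called, 0.44 ± 0.17). The shRCOR2 change of CDKN1A minus its shCTRL change was called (1.22 ± 0.24, limma adjusted p = 0.0444). That of the shRCOR1 line was not (0.52; limma adjusted p = 0.384, and 0.09997 with the block). The MuvB subunit LIN37 was higher in induced shRCOR2 cells (1.20 ± 0.21, limma adjusted p = 0.00817) and changed by 0.20 in the shRCOR1 line and 0.50 in the shCTRL line. Its shRCOR2 change minus its shCTRL change was not called (0.70; limma adjusted p = 0.259, and 0.133 with the block). MYBL2, the MuvB partner in cycling cells, changed by −0.63, −0.39 and −0.52 in the shRCOR2, shRCOR1 and shCTRL lines, and was called with the block in the shRCOR2 line alone (limma adjusted p = 0.0217). E2F4, the DREAM subunit, changed by 0.11, 0.31 and −0.24 in the same order, and was called with the block in the shRCOR1 line alone (limma adjusted p = 0.0295).

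**Figure D5:**
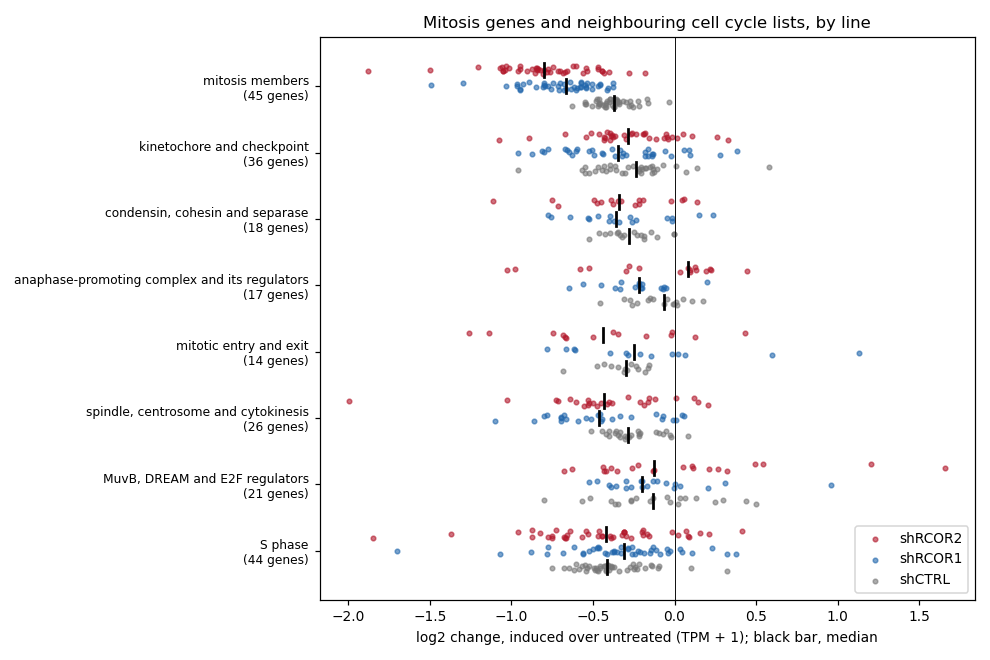
Log2 change, induced over untreated, of the 45 mitosis genes and of 7 lists of related genes in the shRCOR2 (red), shRCOR1 (blue) and shCTRL (grey) lines. Each point is 1 gene and black bars are medians, which for the mitosis genes are −0.80, −0.66 and −0.37 and for the anaphase-promoting complex list 0.08, −0.22 and −0.06.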

How the data were processed

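RNA of 12 Kelly samples was sequenced from directional libraries, per the labels' protocols. The submitters' processing notes name HISAT2 2.2.1, StringTie 2.1.7, Trim Galore 0.6.7 and build GRCh38 (hg38), but neither the annotation release nor the strand setting. The deposited TPM have 1 common total per library, set by the authors, so they measure shares of RNA. The deposited FPKM served as an alternative, and the deposited coverage signal (mean depth over a gene) only to compare depths. The files hold no read counts, so no counting intervals are given.

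The 16842 genes reaching a TPM of 1 in 2 or more libraries entered 1 limma fit (version 3.58.1, R 4.3.3) of log2(TPM + 1) on 6 groups, using a variance trend. Calls needed an adjusted p (Benjamini-Hochberg, all genes tested) under 0.05. The fit was run on simulated data with independent noise in each library, which does not cover the pairing of replicates described next. Deviations from group means correlated between same-numbered replicates in all 15 pairs of groups (0.372 to 0.75 over all genes), so the numbers pair the samples, and blocked values are given too. The members, lists, named genes and tests were chosen with earlier results of these data known. Named were the members called without the block in any of 6 comparisons, the largest and smallest shRCOR2 changes, the highest and lowest mean levels, up to 4 called genes per related list, and 8 genes of like profile; other members are given by ranges and single changes. A result for 1 gene of the S phase list is not reported here. Alternatives were FPKM, a pseudocount of 0.1, no filter, median-of-ratios, quantile and non-mitochondrial scaling, the block, and each library left out; combinations with the block were chosen after seeing the data. Motifs were counted in Python 3.11.15 with pandas 2.3.3, and figures drawn with matplotlib 3.10.9.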

Additional observations from a re-analysis of the deposited data

Results flagged for a closer look

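Several mitosis genes changed by different amounts in different lines, by a test of the difference itself in the limma fit with the replicate block, and none of these differences passed without the block. The log2 changes in shRCOR2 cells minus those in shCTRL cells were −0.64 for CCNA2, −0.86 for NEK2, −0.57 for INCENP, −1.46 for BIRC5, −0.67 for TPX2, −0.68 for UBE2C, −1.15 for PTTG1 and −0.64 for TOP2A. Their limma adjusted p ran from 0.00394 to 0.046 with the block and from 0.205 to 0.64 without it. The changes in shRCOR1 cells minus those in shCTRL cells were −1.12 for CCNA2, −0.65 for TPX2 and −0.95 for PTTG1, with limma adjusted p from 0.00438 to 0.0323 with the block and from 0.372 to 0.559 without it. The changes in shRCOR2 cells minus those in shRCOR1 cells were 0.47 for CCNA2, −0.57 for CDK1, −0.68 for INCENP, −1.10 for BIRC5 and −0.64 for KIF11. Here limma adjusted p ran from 0.00786 to 0.0451 with the block and from 0.238 to 0.621 without it. With the block, limma called 5.8% of all tested genes lower in the shRCOR2 minus shCTRL difference and 3.57% in the shRCOR1 minus shCTRL difference. The 3 calls of 45 mitosis genes in the latter are close to that share. In shRCOR2 minus shRCOR1, 14.7% of all tested genes were lower and 15.7% higher with the block. The 4 lower and 1 higher calls of 45 lie under these shares. The differences of both knockdown lines from shCTRL cells share the same 4 shCTRL libraries.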

How the results depend on the processing

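The number of mitosis genes called lower in the shRCOR2 line, 14, was 42 with the replicate block, 9 with FPKM, 5 with no filter and 7 with median-of-ratios scaling. In the shRCOR1 line, 4 became 43 with the block, 2 with no filter, 1 with median-of-ratios, 7 with quantile and 9 with non-mitochondrial scaling. With the block and FPKM, quantile, median-of-ratios or non-mitochondrial scaling, the counts were 40, 42, 43 and 42 in the shRCOR2 line and 45, 44, 43 and 45 in the shRCOR1 line. In the same order, with the 0 of the fit without the block becoming 8, 3 and 4 lower calls with it, the counts were 8, 6, 8 and 7 for shRCOR2 minus shCTRL, 4, 3, 3 and 3 for shRCOR1 minus shCTRL, and 2, 3, 2 and 3 for shRCOR2 minus shRCOR1. Higher calls in that last difference were 1 with the block, 2 with block and FPKM, and 1 with block and non-mitochondrial scaling. The block also raised the shares of all tested genes called lower. They went from 1.2% to 5.8% for shRCOR2 minus shCTRL, from 0.439% to 3.57% for shRCOR1 minus shCTRL and from 5.97% to 14.7% for shRCOR2 minus shRCOR1. The cause of these moves in the counts was not tested.

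Leaving out 1 library gave 0 to 3 lower calls in the shRCOR2 line and 0 to 13 in the shRCOR1 line without the block, and 0 in the other comparisons. With the block it gave 32, 33, 38 and 40 in the shRCOR2 line, 23, 25, 37 and 44 in the shRCOR1 line, 0 to 1 in the shCTRL line, 2 to 6 for shRCOR2 minus shCTRL, 2 to 14 for shRCOR1 minus shCTRL, and 1 to 12 lower and 0 to 6 higher for shRCOR2 minus shRCOR1. The 13 came without induced shRCOR1 replicate 1. Such fits leave a group with 1 library, which is assumed to vary like the others. Leaving out libraries moved the median change to between −0.95 and −0.619 in the shRCOR2 line and to between −1.05 and −0.298 in the shRCOR1 line.

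Several medians changed sign, in fits without the block, where leaving out 1 library also unbalances the replicate numbers. That for shRCOR1 minus shCTRL, −0.30, ran from −0.658 to 0.088, the 0.088 without induced shRCOR1 replicate 2. The shRCOR2 minus shRCOR1 median was −0.464 at its lowest, 0.008 with FPKM, 0.029 without induced shRCOR2 replicate 2, 0.1 without untreated shRCOR2 replicate 1, 0.339 without induced shRCOR1 replicate 1 and 0.079 without untreated shRCOR1 replicate 2. Between untreated lines, the shRCOR2 median against shCTRL was 0.260 at its highest, −0.128 without untreated shRCOR2 replicate 1 and −0.156 without untreated shCTRL replicate 2. The shRCOR1 median against shCTRL was 0.243 at its highest, −0.114 without untreated shRCOR1 replicate 1 and −0.183 without untreated shCTRL replicate 2. Among single genes named with values, 194 results kept their direction and side of the threshold under alternatives with all libraries, 28 lost and 16 gained the call. The 16 gains all came from the block and were fixed in advance, because these differences were included for being called with it. Under the other alternatives they stayed uncalled and count among the 194, so the 194 is no measure of how stable the calls were. With 2 libraries per group and no read counts, the depth behind a value is unknown and small changes were not detectable.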

Other observations

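Outside the 45, the 8 tested genes whose log2(TPM + 1) over the 12 libraries followed the mean standardised profile of the mitosis genes most closely were SPAG5 (Pearson r = 0.991), GTSE1 (0.986), CCNF (0.984), FAM83D (0.983), CEP55 (0.982), CKAP2L (0.982), PBK (0.981) and CDKN3 (0.980). The points share the libraries and their replicate numbers, so these coefficients are descriptions. SPAG5, which encodes a spindle protein, changed by −0.73 in the shRCOR2 line, −0.70 in the shRCOR1 line and −0.28 in the shCTRL line. CCNF, an F-box cyclin, changed by −0.68, −0.61 and −0.47 in the same order, and CEP55, a protein of the final cut between daughter cells, by −0.56, −0.66 and −0.37. All 8 genes were called lower by limma in the shRCOR2 and shRCOR1 lines with the replicate block and not without it, and 0 of the 8 in the shCTRL line. They were chosen for following the mitosis genes over these same libraries, so their calls repeat that choice and are no separate evidence.

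Among the 45 themselves, KIF20A followed the mean profile most closely (r = 0.997), and the median gene had r = 0.962. The members that followed it least were KIF18A (0.850), KIF20B (0.859), CDC25C (0.884), PRC1 (0.886) and BIRC5 (0.898). KIF18A, KIF20B and CDC25C were the 3 genes not called with the block in the shRCOR2 line, and BIRC5 had the largest change there.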
